A study of Trichosurus vulpecula with 6 samples.

Results

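Smooth muscle and pericyte genes were followed in skin transcriptomes of the brushtail possum, as 4 genes of the contractile apparatus (ACTA2, TAGLN, MYH11 and CNN1) and 3 genes of pericytes (RGS5, PDGFRB and MCAM). These 7 genes were taken from a list, not by their values, out of 17996 genes with at least 1 assembled transcript, and all 7 had transcripts in all 6 libraries. The libraries came from ear punch skin of 3 black and 3 grey adult females, 1 animal per library, all possums of the Dunedin population, and the labels name no treatment and no alleles. Poly(A)-enriched, strand-specific RNA was sequenced to characterise a pigmentation gene and its expression in skin, and the coat colours are compared here gene by gene. An ear punch is a bulk sample of all the cells at the site, so a lower level can mean fewer cells of a type or less RNA in each of them, and these cannot be told apart.

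Smooth muscle in skin lies in the walls of arterioles and venules and in the arrector pili, the small muscles that raise hairs. Its cells contract when myosin light chain is phosphorylated and smooth muscle myosin pulls on filaments of smooth muscle actin, and many of the genes involved are switched on together by serum response factor with its partner myocardin. Pericytes wrap capillaries, share some genes with smooth muscle, and are held to the endothelium by platelet-derived growth factor B, which endothelial cells secrete and the pericyte receptor PDGFRB binds.

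Levels are in TPM, the StringTie estimate of transcript abundance corrected for transcript length and library size, summed over the transcripts assembled for each gene. Between 4.17 and 10.23 gigabases of aligned sequence lay behind each library, least in grey replicate 1. The 7 genes were covered by 620 (CNN1 in grey replicate 1) to 49601 read equivalents (MYH11 in grey replicate 2) per library, numbers that bear on counting error only. Coat colours were compared by limma on log2(TPM + 1), which understates changes of low genes, over the 15559 genes that averaged 1 TPM or more, and p-values were adjusted over all 15559 by the Benjamini-Hochberg method. All 7 genes passed this filter. The 7 defining smooth muscle markers and the 7 defining pericyte markers on fixed lists were above 0 in all 6 libraries.

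No difference between black and grey skin passed the test in either group of genes. Over all genes, 3 of 15559 passed an adjusted p of 0.05 in limma (0.0193%), and none of the 7 did, nor did any of the 7 reach an unadjusted p under 0.05. The black and grey values overlapped in all 7 genes, whereas they did not overlap in 6.32% of all genes tested. Single libraries stood apart instead. The 4 contractile genes all had their highest value in grey replicate 2, where 16.7% of all genes tested were highest, and their next highest in black replicate 3. The 3 pericyte genes each followed another order and none was highest in grey replicate 2 as deposited, although MCAM was highest there, 1.01-fold above the next library, once libraries were scaled to a common median.

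ACTA2 encodes smooth muscle alpha-actin, the thin filament protein most often used to mark these cells, and lies at chr8:12090129-12104481 on the plus strand (coordinates throughout are those of RefSeq on mTriVul1.pri). It stood at 278, 239 and 330 TPM in the 3 black animals, against 154, 432 and 204 TPM in the 3 grey animals. The grey values spanned the black ones on both sides. The means were 282 ± 45.3 TPM in black and 263 ± 148 TPM in grey skin (SD, n = 3 each), and the log2 difference was 0.23 (SE 0.38, 95% interval -0.66 to 1.12, limma adjusted p = 1.00). Without grey replicate 2 it was 0.66, with an unadjusted limma p of 0.028 and an adjusted p of 1.00. The leading ACTA2 transcript was assembled at 1348 and 1448 bases in grey replicates 2 and 3, and at 1275 to 1280 bases elsewhere. When coverage was divided by 1 fixed exon length per gene, the log2 difference over all libraries was 0.052.

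TAGLN encodes transgelin, also called SM22-alpha, an actin-binding protein of smooth muscle, and lies at chr2:126967905-126975170 on the minus strand. Its levels were 270, 266 and 403 TPM in black skin, against 247, 598 and 220 TPM in grey skin. It had the highest mean of the 7 genes (334 TPM over all libraries) and was above ACTA2 in all libraries but black replicate 1. The log2 difference was -0.057 (SE 0.40, 95% interval -1.01 to 0.89, limma adjusted p = 1.00).

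MYH11 encodes the heavy chain of smooth muscle myosin, the motor itself, at chr9:42761262-42879985 on the plus strand. Black skin had 87.2, 79.5 and 104 TPM, and grey skin 55.7, 217 and 67.3 TPM. Grey replicate 2 was 2.08-fold above the next library, and the other 5 libraries lay within a 1.87-fold range. The log2 difference was -0.059 (SE 0.49, 95% interval -1.22 to 1.11, limma adjusted p = 1.00). Without grey replicate 2 it was 0.54, with an unadjusted limma p of 0.035 and an adjusted p of 1.00. As for ACTA2, leaving out the highest grey value raises the difference by itself.

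CNN1 encodes calponin 1, which binds actin and lowers the ATPase activity of smooth muscle myosin, at chr1:76209555-76215488 on the minus strand. Its levels were 24, 33.3 and 35.5 TPM in black skin, against 16.8, 88.9 and 23.9 TPM in grey skin. It was the lowest of the 4 contractile genes in all 6 libraries and had the widest range of the 7 genes, 5.29-fold from the lowest to the highest. The log2 difference was -0.12 (SE 0.58, 95% interval -1.48 to 1.25, limma adjusted p = 1.00). The leading CNN1 transcript was assembled at 2868, 1664 and 2954 bases in black and 2057, 1689 and 2936 bases in grey skin. The shortest assemblies, 1664 and 1689 bases, were in black replicate 2 and grey replicate 2, and grey replicate 2 had the highest level. The 2057 bases in grey replicate 1 went with the lowest level. When coverage was divided by 1 fixed exon length per gene, CNN1 in grey replicate 2 was 1.47-fold above the next library in place of 2.51-fold, and its range was 4.44-fold.

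**Figure D1:**
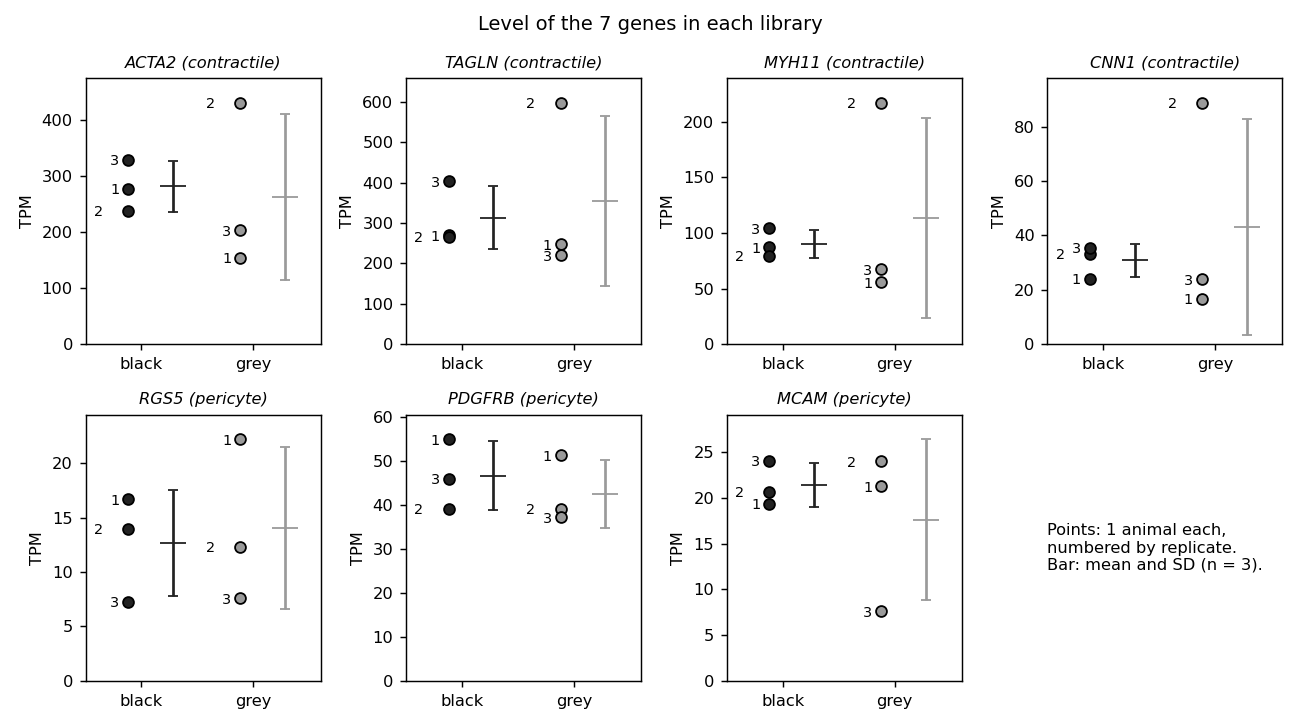
Level of each of the 7 genes (TPM, axis from 0) in the 3 black and 3 grey possums, with each animal as a point numbered by replicate and the mean and SD beside it. Grey replicate 2 is the top point in ACTA2, TAGLN, MYH11 and CNN1 and not in RGS5, PDGFRB or (as deposited, before scaling) MCAM, and the black and grey points overlap in every panel.

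RGS5, a regulator of G protein signalling that is among the most used marker genes of pericytes in mouse and human, was the lowest of the 7 genes by mean, at 13.4 TPM. It lies at chr4:55954274-56067471 on the minus strand. Its levels were 16.7, 14 and 7.26 TPM in black skin, against 22.2, 12.3 and 7.6 TPM in grey skin. Each coat colour thus held a 2-fold or wider spread, with the lowest value in black replicate 3 and the highest in grey replicate 1, the library in which ACTA2, MYH11 and CNN1 were lowest. The log2 difference was -0.094 (SE 0.43, 95% interval -1.13 to 0.94, limma adjusted p = 1.00).

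PDGFRB, the receptor through which pericytes answer platelet-derived growth factor B, varied least of the 7. It lies at chr3:58878849-58925884 on the minus strand and was assembled in 2 separate pieces, whose TPM is summed here and given by piece further on. Black skin had 55, 39.2 and 46 TPM and grey skin 51.4, 39.2 and 37.2 TPM, a range of 1.48-fold over the 6 animals. The log2 difference was 0.13 (SE 0.20, 95% interval -0.35 to 0.61, limma adjusted p = 1.00), the narrowest interval of the 7 genes. PDGFRB is also made by dermal fibroblasts, so its level in bulk skin is not that of pericytes alone.

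MCAM, the adhesion molecule CD146 of pericytes, smooth muscle and endothelium, lies at chr2:271156310-271164454 on the plus strand. It stood at 19.4, 20.7 and 24.1 TPM in black skin, against 21.3, 24 and 7.6 TPM in grey skin. The other 5 animals lay between 19.4 and 24.1 TPM and grey replicate 3 was low. The log2 difference was 0.40 (SE 0.41, 95% interval -0.56 to 1.37, limma adjusted p = 1.00), and it was -0.083 without grey replicate 3. Fibroblast markers were also lowest in that library, where 7 of them (COL1A1, COL1A2, DCN, LUM, PDGFRA, FBLN1 and DPT) summed to 1006 TPM, against 2426 to 3784 TPM in the other 5 libraries. The sum of 10 endothelial markers was lowest there as well, at 223 TPM against 251 to 332 TPM elsewhere. Of all 15559 genes tested, 3650 were lowest in grey replicate 3. The part of any of this in the MCAM value was not tested.

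**Figure D2:**
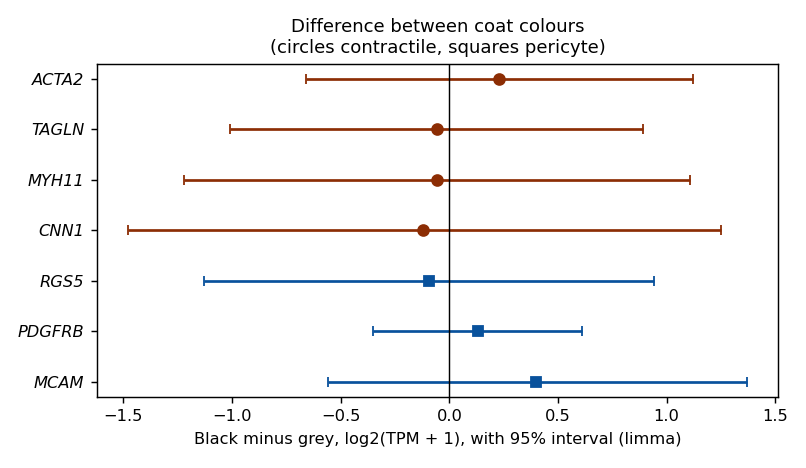
Black minus grey difference of each gene on the log2(TPM + 1) scale with its 95% interval from limma, contractile genes as circles and pericyte genes as squares. All 7 intervals include 0, and they are widest for CNN1 (-1.48 to 1.25) and narrowest for PDGFRB (-0.35 to 0.61).

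The intervals show how far a difference could have gone undetected. For ACTA2 they allowed a level up to 1.12 higher or 0.66 lower on the log2 scale in black skin, and for CNN1 up to 1.25 higher or 1.48 lower. Exact 2-sided permutation tests of the TPM values gave p = 0.50 for PDGFRB and 0.80 to 1.00 for the other 6 genes, where 3 animals against 3 cannot give a p below 0.1.

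The contractile and pericyte genes were then set against each other within each animal. As the mean of log2(TPM + 1), the 4 contractile genes stood at 6.83, 6.85 and 7.23 in black and 6.30, 8.06 and 6.55 in grey replicates 1, 2 and 3. The 3 pericyte genes stood at 4.77, 4.56 and 4.42 in black and 4.91, 4.57 and 3.82 in grey skin. The contractile level minus the pericyte level was therefore 2.06, 2.29 and 2.82 in black skin, against 1.39, 3.49 and 2.73 in grey skin. Grey skin held both the smallest and the largest of these differences, and the means of 2.39 ± 0.39 in black and 2.54 ± 1.06 in grey skin (SD, n = 3 each) differed by -0.15, less than either SD.

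The order of the 7 genes within an animal was nearly fixed. TAGLN and ACTA2 led in all 6 libraries, MYH11 was the third in all, and RGS5 was the last in all but grey replicate 1. CNN1 moved most in this order: it was above PDGFRB in grey replicate 2, the last of the 7 in grey replicate 1, and between PDGFRB and MCAM in the other 4 libraries. The ACTA2 level was 2.99 times the summed PDGFRB level in grey replicate 1 and 11 times in grey replicate 2.

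The contractile genes moved together but not by equal amounts. Relative to ACTA2, MYH11 stood at 0.313, 0.332 and 0.317 in black skin and at 0.362, 0.503 and 0.33 in grey skin. This ratio was nearly the same in 5 animals and higher in grey replicate 2. With 1 fixed exon length per gene the ratio ran only from 1.52 in grey replicate 3 to 2 in grey replicate 2, with 1.88 in grey replicate 1, so the size of that excess depended on the transcript lengths as assembled. Among the pericyte genes the ratios moved more: RGS5 over MCAM ran from 0.301 in black replicate 3 to 1.05 in grey replicate 1.

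The distance between 2 genes was measured as the root mean square of the difference between their log2(TPM + 1) values over the 6 libraries, each gene centred on its own mean. The 6 pairs of contractile genes lay 0.206 (MYH11 and CNN1) to 0.377 (ACTA2 and CNN1) apart. The 3 pairs of pericyte genes lay 0.449 (RGS5 and PDGFRB) to 0.582 (RGS5 and MCAM) apart, and the 12 mixed pairs 0.464 to 1.03. The 3 pericyte genes were thus less alike in their pattern than any pair of the contractile genes, over 6 libraries that these distances share.

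**Figure D3:**
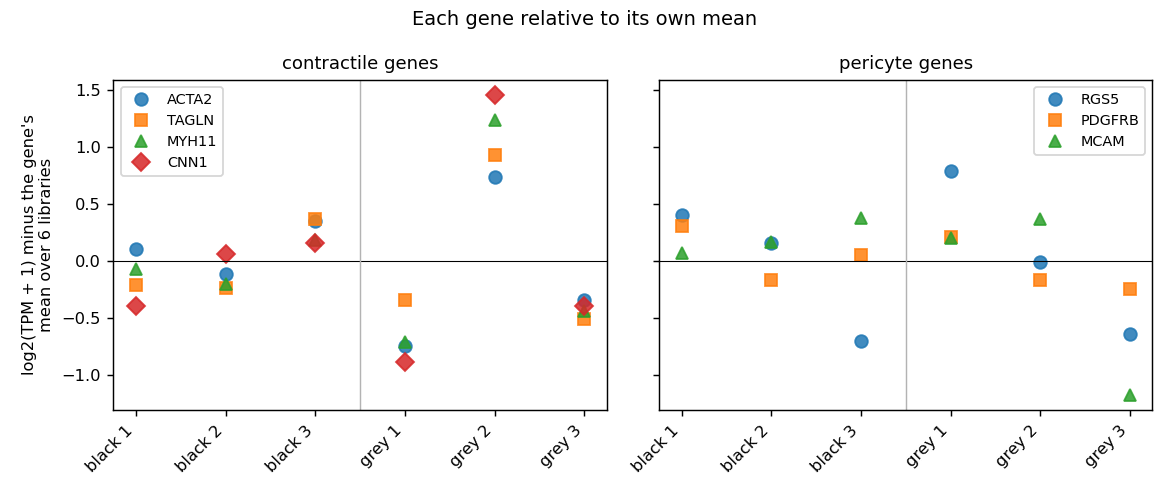
Each gene's log2(TPM + 1) minus its own mean over the 6 libraries, for the contractile genes on the left and the pericyte genes on the right, black libraries before grey ones. The 4 contractile genes stand highest in grey replicate 2, and in the pericyte panel RGS5 is highest in grey replicate 1 and MCAM lowest in grey replicate 3.

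Other genes of the contractile apparatus were described from a list of 34, of which 33 were tested. None passed the test between coat colours in either direction, and their median log2 difference was 0.096, beside 0.037 over all genes tested. The most abundant were MYL6, the essential light chain of myosin, with a mean of 575 TPM and a 1.85-fold range, and TAGLN2, with a mean of 496 TPM and a 1.36-fold range. The lowest unadjusted p in the list, 0.11 in limma, was that of CSRP1, which encodes an actin cytoskeleton LIM protein of smooth muscle. CSRP1 stood at 125, 236 and 220 TPM in black skin, against 116, 175 and 93.4 TPM in grey skin. Its groups overlapped. The black and grey values of 1 gene of the 33 did not, beside 6.32% of all genes tested: ROCK1, a kinase that restrains myosin phosphatase, at 18, 15.6 and 17.5 TPM in black skin, against 19.8, 18.1 and 19.4 TPM in grey skin.

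The list split by how its genes varied between animals. Of the 33 genes 10 were highest in grey replicate 2, beside 16.7% of all genes tested, and they included ACTG2 (gamma-2 actin of visceral smooth muscle), MYL9 (the regulatory light chain), MYLK (the kinase that phosphorylates it), CALD1 (caldesmon), LMOD1 (leiomodin, which nucleates actin filaments), KCNMB1 (the smooth muscle subunit of the large-conductance potassium channel) and MYOCD (myocardin). ACTG2 stood at 86.3, 83.8 and 192 TPM in black skin and 71.3, 278 and 135 TPM in grey skin. LMOD1 stood at 10.9, 7.68 and 9.74 TPM in black skin and 7.14, 25.8 and 13.6 TPM in grey skin. In both, grey replicate 2 was the highest, as in the 4 listed contractile genes. This was not limited to contractile genes: 6 of the 21 tested genes of the wider pericyte list, described further on, were also highest there.

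KCNMB1 and MYLK followed the mean profile of ACTA2, TAGLN, MYH11 and CNN1 most closely within the list, at distances of 0.191 and 0.249. KCNMB1 stood at 3.3, 3.37 and 3.97 TPM in black and 1.76, 7.72 and 3.53 TPM in grey skin. MYOCD was low throughout, at 1.43, 1.17 and 2.16 TPM in black and 1.36, 3.22 and 1.31 TPM in grey skin, and lay at 0.289. Its partner SRF stood at 27.4, 22 and 18.1 TPM in black and 21.4, 22.1 and 29.8 TPM in grey skin and was not highest where the contractile genes were.

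Another 13 of the 33 were highest in black replicate 1, beside 21.7% of all genes tested. That library held skeletal muscle RNA: 8 skeletal muscle markers, MYL1, ACTA1 and CKM among them, summed to 4471 TPM there, against 77.6 and 131 TPM in the other black libraries and 75 to 84 TPM in the grey ones. Outside black replicate 1 most of each sum was a single marker, MB, at 70.5 to 123 TPM. DES, the intermediate filament desmin of striated and many smooth muscles, stood at 605 TPM in black replicate 1 and between 1.7 and 3.16 TPM elsewhere, where ACTA2 was at 154 TPM or more. TPM1 and TPM2, the tropomyosins, stood at 422 and 439 TPM in black replicate 1, and no higher than 194 TPM (TPM1) and 199 TPM (TPM2) elsewhere. Of the 7 genes, ACTA2, TAGLN and MYH11 in black replicate 1 lay between black replicates 2 and 3, and CNN1 below both. PDGFRB had its highest value there, 55 TPM beside 51.4 TPM in grey replicate 1, RGS5 its second highest, and MCAM its second lowest. Over the other 5 libraries, 18 of the 33 genes were highest in grey replicate 2, beside 21.1% of all genes tested. So were 8 of the 21 tested genes of the wider pericyte list (38.1%).

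Of 13 tested relatives of the 7 genes that could share reads with them or be mistaken for them, 5 were highest in grey replicate 2, beside 16.7% of all genes tested. ACTG2, the other smooth muscle actin, varied as the contractile genes did, as given above. ACTA1, the skeletal muscle actin, was at 844 TPM in black replicate 1 and at 0.375 to 2.2 TPM elsewhere, while ACTA2 in that library was within the range of the other black animals. ACTC1, cardiac actin, stood at 123, 16.2 and 18.9 TPM in black and 10.1, 51.3 and 38.3 TPM in grey skin. ACTB and ACTG1, the actins of all cells, were 1.99-fold and 1.34-fold in range, TAGLN2 1.36-fold, CNN2 1.3-fold, and the non-muscle myosins MYH9 and MYH10 1.61-fold and 1.75-fold, all narrower than the 2.72-fold to 5.29-fold ranges of ACTA2, TAGLN, MYH11 and CNN1.

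Other pericyte and vessel wall genes were described from a list of 25, of which 21 were tested. None passed the test between coat colours, and the median log2 difference was -0.014. NDUFA4L2, a mitochondrial protein raised in pericytes of other mammals, was the most even of the abundant ones, at 174, 170 and 186 TPM in black and 162, 209 and 167 TPM in grey skin. CSPG4, the proteoglycan NG2 of pericytes, stood at 34.4, 37.2 and 28.2 TPM in black and 62, 35 and 30.6 TPM in grey skin, with its highest value in grey replicate 1 as for RGS5. In all, 6 of the 21 tested genes of this list were highest in that library, beside 2598 of all 15559 genes tested. So were 4 of 7 tested fibroblast markers. COL4A1, a collagen of the vessel basement membrane, had a mean of 56.5 TPM and its highest value, 94.4 TPM, in black replicate 3. NOTCH3, the receptor through which endothelium instructs mural cells, stood at 42.7, 29.7 and 26.6 TPM in black and 24.8, 36.6 and 36.3 TPM in grey skin.

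KCNJ8 and ABCC9 encode the pore and the regulatory subunit of the potassium channel of pericytes that ATP closes. KCNJ8 stood at 5.4, 5.56 and 6.94 TPM in black skin and 8.96, 9.09 and 7.01 TPM in grey skin, 1 of 21 genes of this list whose black and grey values did not overlap, beside 6.32% of all genes tested. Its log2 difference of -0.42 had an unadjusted limma p of 0.079 and did not pass the test. ABCC9 stood at 5.12, 2.45 and 6.94 TPM in black and 8.03, 8.43 and 3.61 TPM in grey skin, and these overlapped. THY1, which fibroblasts and nerve also make, was at 249, 282 and 339 TPM in black and 342, 334 and 62.8 TPM in grey skin, lowest in grey replicate 3 as was MCAM. VTN, the matrix protein vitronectin that marks brain pericytes in mouse, was listed at 0 in all but black replicate 2, at 0.423 TPM.

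**Figure D4:**
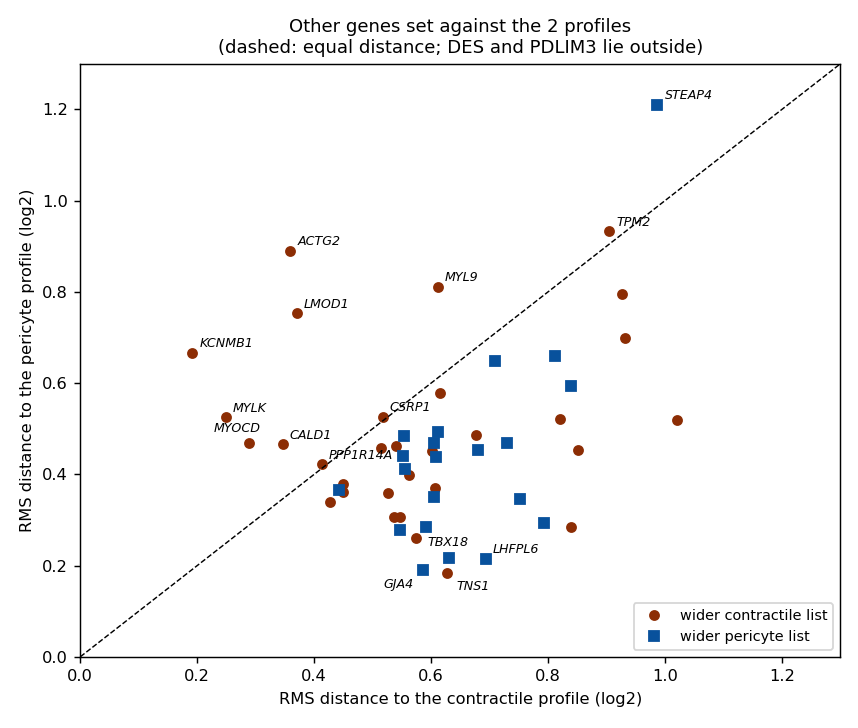
Distance of the tested genes of the wider contractile list (circles) and of the wider pericyte list (squares) to the mean profile of the 4 contractile genes (horizontal axis) and of the 3 pericyte genes (vertical axis), in log2 units over 6 libraries. DES and PDLIM3, of the contractile list, lie outside the axes and are not drawn, but are among the 33 counted. Of 33 contractile genes 10 lie above the dashed line, nearer the contractile profile, against 1 of 21 pericyte genes (STEAP4).

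Of the 33 wider contractile genes 10 (30.3%) lay nearer the contractile profile, as did 1 of the 21 wider pericyte genes (4.76%) and 14% of all genes tested. Nearest to the pericyte profile were TNS1 (tensin 1, an actin-binding protein of adhesion sites, placed in the contractile list) at 0.183, and, from the pericyte list, GJA4 (connexin 37) at 0.19, LHFPL6 at 0.215 and TBX18, a transcription factor of mural cells, at 0.216.

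The same measure over 9515 protein-coding genes that averaged 5 TPM or more gave genes of many kinds. Nearest to the contractile profile were EEF1AKMT1 (0.121), CLDN8 (0.134), PTGS1 (0.154), KRT7 (0.158) and BPHL (0.178), of which CLDN8 encodes a claudin of tight junctions, PTGS1 the constitutive cyclooxygenase and KRT7 a keratin of glandular epithelium. KRT7 stood at 92.7, 116 and 162 TPM in black and 65.1, 220 and 79.4 TPM in grey skin. Nearest to the pericyte profile were MRPL13 (0.0924), GULP1 (0.101), SORD (0.112), ARHGEF40 (0.113) and APBB2 (0.113). For single genes, the nearest were TRAPPC9 to ACTA2 (0.131), GMDS to TAGLN (0.137), PTGS1 to MYH11 (0.11), ANXA9 to CNN1 (0.221), TUBGCP6 to RGS5 (0.189), NOL9 to PDGFRB (0.0671) and ESD to MCAM (0.0898). With 6 libraries and 9515 candidates such neighbours are a description of these animals.

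Of the markers of other cell types, part of the melanocyte list moved with the contractile genes. The 7 melanocyte genes (PMEL, MLANA, TYR, TYRP1, DCT, MITF and SOX10) summed to 163, 113 and 264 TPM in black skin and 81.5, 268 and 93.5 TPM in grey skin, the same order of animals as for ACTA2 and MYH11. This was not so for each gene: TYR, TYRP1 and DCT were highest in grey replicate 2, PMEL and MLANA in black replicate 3, MITF had a 1.29-fold range with its highest value in black replicate 1, and SOX10 was highest in grey replicate 3, with all 3 grey values above the black ones. The 10 endothelial markers, with PECAM1, CDH5 and VWF among them, summed to 332, 257 and 251 TPM in black and 282, 328 and 223 TPM in grey skin, another order, with black replicate 1 highest and black replicate 3 below all but grey replicate 3. None of the melanocyte or endothelial markers was at 0 in any library, and the part of hair follicle or vessel content in the levels of the 7 genes was not tested. Keratinocyte content could be followed by TP63 alone, 1 of 6 markers with a value, at 36.6 to 48.7 TPM over all 6 libraries.

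Signals to smooth muscle and pericytes were measured from a list of 26, of which 22 were tested and none passed. The ligand PDGFB, made by endothelium, stood at 8.42, 7.25 and 14.3 TPM in black and 10.4, 11.5 and 11.6 TPM in grey skin, and PDGFD, the other ligand of PDGFRB, at 4.42, 5.31 and 3.55 TPM in black and 9.24, 6.2 and 4.03 TPM in grey skin. The groups overlapped in both. ANGPT1, the ligand that mural cells send to endothelium, was the 1 gene of the 22 whose groups did not overlap, beside 6.32% of all genes tested, at 2.44, 1.48 and 1.76 TPM in black skin and 1.07, 0.89 and 0.883 TPM in grey skin. PDGFRA, the related receptor of fibroblasts, had a mean of 17.1 TPM, within the 13.6 to 19.8 TPM of the 5' piece of PDGFRB and below the 23.6 to 35.1 TPM of its 3' piece. Of the receptors that contract vessels and arrector muscle, the endothelin receptor EDNRA stood at 12.6, 17.4 and 17 TPM in black and 23, 19.9 and 11.6 TPM in grey skin, while the adrenergic receptors ADRA1A, ADRA1B and ADRA1D had means of 0.544, 0.99 and 0.299 TPM, under the filter. ADRA1A was listed at 0 in black replicate 2 and grey replicate 1, and ADRA1D in black replicates 2 and 3 and grey replicate 1. AGTR1, the angiotensin II receptor, stood at 0.466, 0.669 and 1.01 TPM in black and 3.89, 1.6 and 0.294 TPM in grey skin. It was highest in grey replicate 1, as were RGS5, CSPG4 and 2598 of all 15559 genes tested.

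Of the RGS family 6 other genes were listed beside RGS5, and none passed the test. RGS2 and RGS3, with means of 34.6 and 31.5 TPM, were above RGS5, and RGS1, RGS4, RGS10 and RGS16 had means of 1.02 to 5.69 TPM. Of the 6, RGS3 was highest in grey replicate 1 (45.1 TPM) as was RGS5, beside 2598 of all 15559 genes tested. None of the 6 was lowest in black replicate 3, where RGS5 was, beside 1765 of all 15559 genes tested.

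The assembled transcripts of the 7 genes numbered 129 over the 6 libraries, from 10 of RGS5 to 30 of TAGLN, and all 129 were assigned by position. In MYH11 they carried 2 short exons that were left out of some transcripts. The first was 21 bases long (chr9:42821982-42822002, plus strand) and of the length of the insert in the myosin head that, in other mammals, marks the faster SM-B form of smooth muscle myosin. Transcripts with it held 57.3%, 22.5% and 22.3% of MYH11 TPM in black skin, against 43.4%, 24.6% and 70% in grey skin. In 3 animals (black replicates 2 and 3 and grey replicate 2) the share was between 22.3% and 24.6%, and in the other 3 between 43.4% and 70%, so the split did not follow coat colour. The means were 34 ± 20.1% in black and 46 ± 22.8% in grey skin (SD, n = 3 each, exact 2-sided permutation p = 0.50, and 0.77 adjusted over the 9 alternative exons of MYH11, PDGFRB and MCAM).

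The shares rest on how the assembler divided reads among transcripts. As a second measure, also taken from the assembled transcripts, the coverage of this exon was compared with that of its flanking exons. It was 50.2%, 38.4% and 29.4% of theirs in black skin and 48.5%, 36% and 60.2% in grey skin. The same 3 animals were the higher ones, with a smaller gap.

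The other exon was 33 bases long (chr9:42875703-42875735, plus strand) and lay just before the last exon, where human and mouse MYH11 have the small exon that separates the SM1 and SM2 tails. Transcripts with it held 14.9%, 13.5% and 16.5% of MYH11 TPM in black skin and 24%, 7.18% and 0% in grey skin. It was in no MYH11 transcript assembled in grey replicate 3, a library with 20243 MYH11 read equivalents. The means were 15 ± 1.5% in black and 10.4 ± 12.3% in grey skin (SD, n = 3 each, exact 2-sided permutation p = 0.60, adjusted 0.77). Its coverage was 25.9%, 16.5% and 22.3% of that of its flanking exons in black skin and 32.1%, 9.99% and 0% in grey skin. The black animals lay further apart by this measure. Coverage came from the assembled transcripts, so the 0% in grey replicate 3 was fixed by the absence of the exon from them. Whether reads of the exon were present there was not tested. Reading frame and protein were not examined for either exon.

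**Figure D5:**
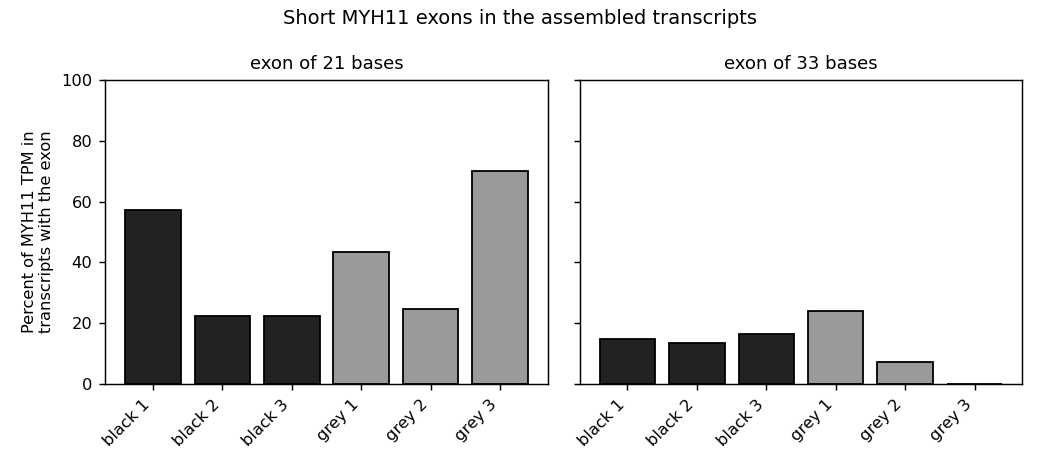
Share of MYH11 TPM (percent, axis 0 to 100) in transcripts that carried the 21-base exon (left) and the 33-base exon (right), with 1 bar per library, black before grey. The 21-base exon is highest in grey replicate 3 (70%) and between 22.3% and 24.6% in black replicates 2 and 3 and grey replicate 2, and the 33-base exon is at 0% in grey replicate 3.

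The start of MYH11 also differed between assemblies. A downstream first exon of 362 bases began 100%, 94.2% and 92.8% of MYH11 TPM in black replicates 2 and 3 and grey replicate 2, and it began no transcript in black replicate 1 or grey replicates 1 and 3, where an upstream first exon held 96.8%, 100% and 100%. The 3 libraries with the downstream exon were those with the least of the 21-base exon. The start of ACTA2 differed too, but it divided the libraries in another way. Its upstream first exon was on 2.29%, 1.91% and 1.82% of its TPM in black skin and on 1.68%, 91.2% and 97% in grey skin. An assembled start need not be a transcription start, and the use of 1 start or another was not tested.

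MCAM had 1 exon of 118 bases next to the last (chr2:271162648-271162765, plus strand) that some transcripts skipped, the kind of change that in human and mouse gives a short in place of a long cytoplasmic tail. Transcripts with the exon held 78.3%, 88% and 100% in black skin and 68.8%, 100% and 70% in grey skin (exact 2-sided permutation p = 0.60, adjusted 0.77). A second MCAM exon began at either of 2 positions 3 bases apart, and the form with the longer exon of 142 bases held 62.9% to 87.9% in all 6 libraries.

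PDGFRB was assembled in 2 pieces in every library, with no transcript across 2037 bases between chr3:58885763 and chr3:58887801, so the summed TPM above counts 1 messenger RNA in both pieces. The 5' piece of up to 11 exons stood at 19.8, 14.1 and 17.5 TPM in black and 17.2, 14.6 and 13.6 TPM in grey skin. The 3' piece of 5 exons stood at 35.1, 25.1 and 28.5 TPM in black and 34.2, 24.6 and 23.6 TPM in grey skin. Either piece alone gave the same picture, with ranges of 1.46-fold and 1.49-fold and exact 2-sided permutation p = 0.40 and 0.50. With the 5' piece as the level of PDGFRB, CNN1 would be above PDGFRB in all libraries but grey replicate 1.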

How the data were processed

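RNA from ear punches of 6 possums was sequenced as 120-base single-end, strand-specific libraries. The authors trimmed reads with Trim Galore 0.6.10, mapped them with HISAT2 2.2.1, removed contaminating amplicon reads and assembled each library alone with StringTie 2.2.0. The authors deposited TPM, FPKM and coverage values per transcript. FPKM was not used. There are no raw read counts in these values, so no count model was run, and read equivalents are coverage times length over read length. Of 274079 transcripts 232941 were assigned to RefSeq genes by same-strand exon overlap and 716 by name. TPM was summed per gene and compared with limma 3.58.1 (R 4.3.3, trend) on log2(TPM + 1), for genes averaging 1 TPM or more. The step was tested on simulated data, drawn independently for each gene, so shifts shared by the genes of 1 library were not covered. Permutation tests used scipy 1.17.1. Alternative exons were those in at least 4 libraries and on 2% to 98% of spanning TPM on average. The genes named were the members, list genes by role, level or pattern, and nearest neighbours in pattern. KCNJ8, CSRP1, ROCK1, ANGPT1 and other list genes outside the most abundant were singled out after their values were seen. The members and lists were chosen with earlier results of these data known. Libraries are 1 per animal, so the spread includes animal, sampling site and preparation.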

Additional observations from a re-analysis of the deposited data

How the results depend on the processing

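None of the 7 genes passed the limma test under any alternative, with adjusted p from 0.99 to 1.00. Leaving out each animal in turn gave log2 differences of -0.085 to 0.66 for ACTA2, -0.32 to 0.40 for TAGLN, -0.43 to 0.54 for MYH11, -0.59 to 0.58 for CNN1, -0.44 to 0.28 for RGS5, 0.01 to 0.27 for PDGFRB and -0.083 to 0.69 for MCAM, so the sign of all but PDGFRB turned with 1 animal. Without grey replicate 2 the differences of ACTA2, TAGLN, MYH11 and CNN1 were 0.66, 0.40, 0.54 and 0.58, with unadjusted limma p of 0.028, 0.16, 0.035 and 0.07. That animal held the highest value of each, so leaving it out raises all of these differences by itself. With 1 fixed exon length per gene, ACTA2 was at 0.052 in place of 0.23 and CNN1 at 0.033 in place of -0.12, and the cause was not tested. Without 1 animal, medians of the wider lists ran from -0.066 to 0.23 (contractile) and from -0.19 to 0.053 (pericyte). The contractile minus pericyte difference ran from -0.72 to 0.33, and each of these signs turned with 1 animal. All moved by less than the pooled SD between animals of 1 colour, which was 0.19, 0.22 and 0.80. Leaving out 1 animal could hardly move them further, so that comparison decides nothing.

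The count of genes called over all genes, 3, was 1 at a mean of at least 5 TPM, 6 with fixed exon length and 0 to 2 without 1 animal. With the replicate number as a block it was 0. The block could not change the 7 differences themselves, because each number holds 1 black and 1 grey animal. Deviations of same-numbered animals correlated at -0.038, 0.018 and -0.059 over genes, so no pairing by number was visible in expression. The labels do not say whether the animals were paired in sampling or preparation. Grey replicate 2 stayed the highest library for ACTA2, TAGLN, MYH11 and CNN1 after scaling to a common median and with 1 fixed exon length per gene. Keeping only multi-exon transcripts or only assignments by position left their highest values as they were. MCAM was also highest there after scaling, at 1.01 times the next library. Views of PDGFRB by piece, of exon coverage and of the 5 libraries without black replicate 1 were chosen after seeing the data. With 3 animals per colour the 95% intervals reached as far as -1.48 to 1.25 on the log2 scale (CNN1), which is what limits these comparisons.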
